A study of Homo sapiens with 6 samples.

Results

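The H3K4me2 landscape of MYC and of the long stretch of chromosome 8 in front of it was examined in LNCaP, a prostate cancer cell line that responds to androgen. Members were all peak records overlapping chr8:127900000-128900000 (build hg19), a window fixed by position and not by signal. Records of the 3 peak lists that overlapped by at least 1 bp were merged into union regions, and the window held 99 of the 151839 union regions of the whole series. Of these, 6 lay in the gene part (MYC, chr8:128748315-128753680 on the plus strand, with 10 kb on each side), 64 in the upstream part (chr8:127900000-128730000) and 29 in the remaining, downstream part of the window.

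MYC encodes a transcription factor that drives growth and ribosome production and is among the genes most often gained in prostate cancer. The stretch before it is poor in protein-coding genes, carries inherited risk for prostate cancer, and holds enhancers that act on MYC over long distances. H3K4me2, dimethylated lysine 4 of histone H3, marks active and poised enhancers and the flanks of active promoters. LSD1 (KDM1A) removes methyl groups from this lysine.

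The 6 samples formed 3 groups of 2 replicates, all kept for 3 days in 5% charcoal-stripped serum, which is low in steroids. The vehicle group is labelled as receiving vehicle and no inhibitor. The GSK 4 h and GSK 24 h groups received the LSD1 inhibitor GSK2879552 for 4 or 24 h. Their labels add DHT, an androgen, while the treatment protocol names the inhibitor alone and the series text speaks of vehicle or DHT with or without inhibitor. Effects of the inhibitor and of DHT therefore cannot be told apart here. Both replicates of a group were pooled by the authors into a single peak list, so the values below carry no replicate error and no difference between groups was tested. Intervals are 95% intervals that cover counting error only. The cell type was not checked here against marker genes, because no annotation of this build was used.

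The lists held 99997 regions in vehicle, 128134 at GSK 4 h and 127189 at GSK 24 h. A summit pileup is the number of fragments covering the highest base of a peak, recovered from the deposited fold and p-value, and a height is that pileup over the genome-wide background found in its own list (2.08, 1.88 and 1.97 fragments). The median pileup of a list was 23 in vehicle, 21 at GSK 4 h and 21 at GSK 24 h. The fragment length was 221 bp in vehicle, 186 bp at GSK 4 h and 219 bp at GSK 24 h, and a shorter fragment gives a different pileup from the same tags. Its part in the 4 h heights was not tested.

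The window as a whole was rich in H3K4me2. It held 61 records in vehicle, 69 at GSK 4 h and 78 at GSK 24 h, against medians of 31, 42 and 42 over 2909 stretches of 1 Mb across the genome. The count at GSK 4 h was 1.13 times that of vehicle, below the genome-wide 1.28 times, and among the 1987 stretches with at least 20 regions in each list it stood at percentile 19.6. The count at GSK 24 h was 1.28 times that of vehicle, close to the genome-wide 1.27 times. The window's gain in records was therefore close to that of the lists at 24 h and below it at 4 h.

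The 3 parts differed in density and in height, and the upstream counts depended on the length of the lists. The upstream part held 4.34 records per 100 kb in vehicle, 5.06 at GSK 4 h and 5.78 at GSK 24 h. With each list held to its 99997 strongest regions, the upstream part had 36, 35 and 34 records, and the window 61, 56 and 60, so the rise in number was not seen. The gene part held 15.8, 15.8 and 27.6 per 100 kb, and the downstream part 15.4, 16.9 and 16.9. Upstream regions were low, with median heights of 7.92 in vehicle, 9.56 at GSK 4 h and 8.65 at GSK 24 h, below the list medians of 11.0, 11.2 and 10.7. The highest summits of the gene part stood far above them, at 47.5, 59.0 and 56.0.

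**Figure D1:**
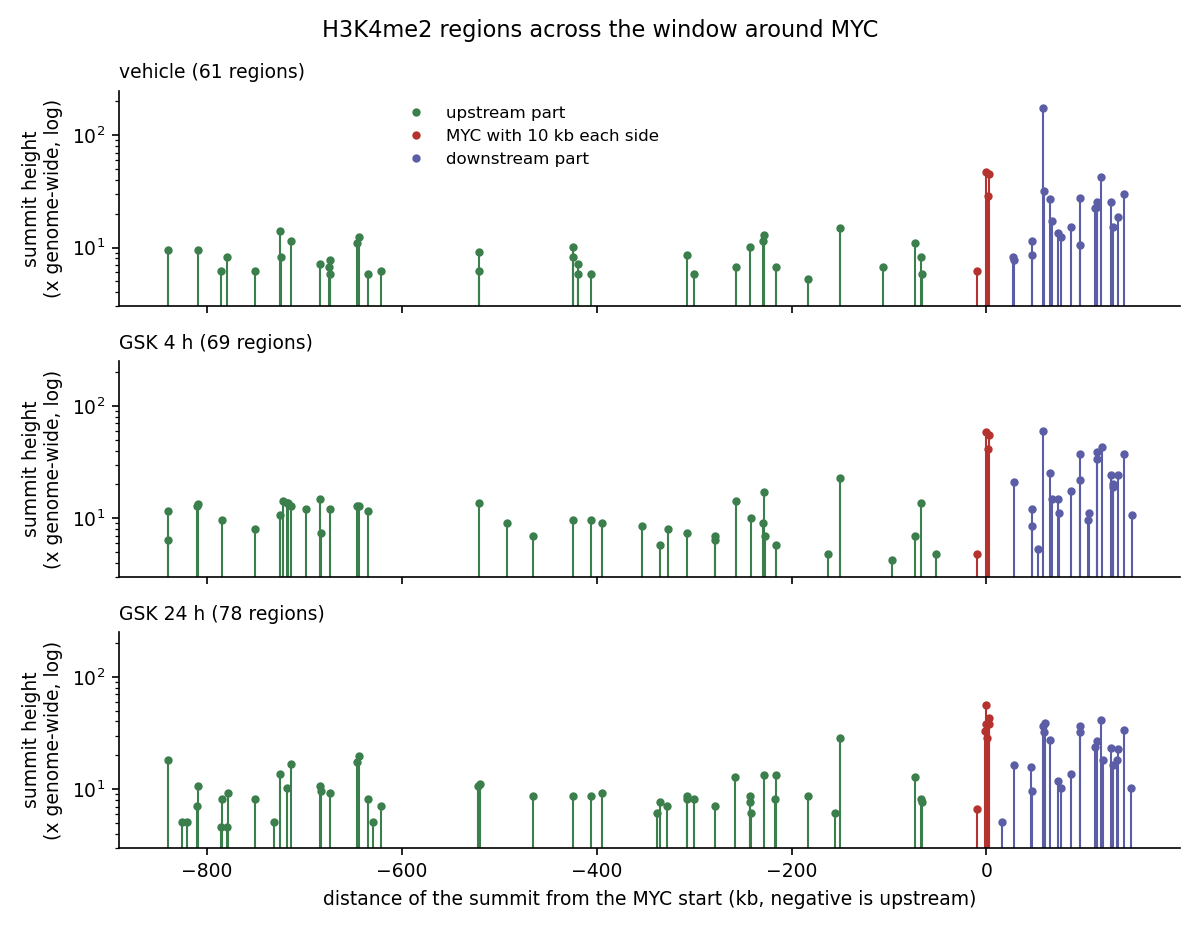
Summit height (multiples of the genome-wide background, log axis) of each H3K4me2 record against the distance of its summit from the MYC start in kb, with 1 panel per peak list and colours for the 3 parts. Low regions are scattered unevenly over the upstream part in all lists, with long gaps, and the summits at MYC reach 47.5, 59.0 and 56.0.

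At the gene itself, a pair of strong regions framed the MYC start in all 3 lists. The first, chr8:128747095-128748430, ended just past the start and had its summit 970 bp before it in vehicle, 999 bp at GSK 4 h and 996 bp at GSK 24 h. The second, chr8:128750187-128751526, lay inside the gene with its summit 2804, 2789 and 2864 bp after the start. The distance between both summits was 3774 bp in vehicle, 3788 bp at GSK 4 h and 3860 bp at GSK 24 h, so the frame moved by less than 100 bp. A stretch just after the start held no region, and its length was 1298 bp in vehicle, 1130 bp at GSK 4 h and 672 bp at GSK 24 h.

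The summit before the start had a pileup of 99 fragments in vehicle, 111 at GSK 4 h and 110 at GSK 24 h. Its height relative to vehicle was 0.31 on the log2 scale at GSK 4 h (interval -0.09 to 0.72) and 0.24 at GSK 24 h (-0.17 to 0.64), and both intervals included 0. The summit inside the gene had a pileup of 94, 103 and 85. Its log2 height ratio was 0.28 at GSK 4 h (-0.14 to 0.70) and -0.06 at GSK 24 h (-0.50 to 0.38). Neither MYC summit differed from vehicle beyond counting error at either time.

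The number of records at the gene differed more than their height. Vehicle and GSK 4 h each had 4 and GSK 24 h had 7, while the length covered was nearly the same, at 3.02, 2.92 and 3.17 kb. Counting only records with a -log10 q-value of at least 10, it was 2.32, 2.44 and 1.06 kb. Both strong regions were a single record in vehicle and at GSK 4 h and 2 records each at GSK 24 h. A small region inside the gene, chr8:128749561-128749979, had a pileup of 60 in vehicle and 78 at GSK 4 h (log2 height ratio 0.53, 0.02 to 1.04) and was not listed at GSK 24 h. The regions chr8:128746585-128746823 (pileup 65) and chr8:128749001-128749240 (pileup 56) were listed at GSK 24 h alone. A weak region near the edge of the flank, chr8:128738736-128739206, had a pileup of 13, 9 and 13. When records within 1 kb were merged, the gene part had 3 records in each list, covering 3.36, 3.25 and 4.33 kb.

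**Figure D2:**
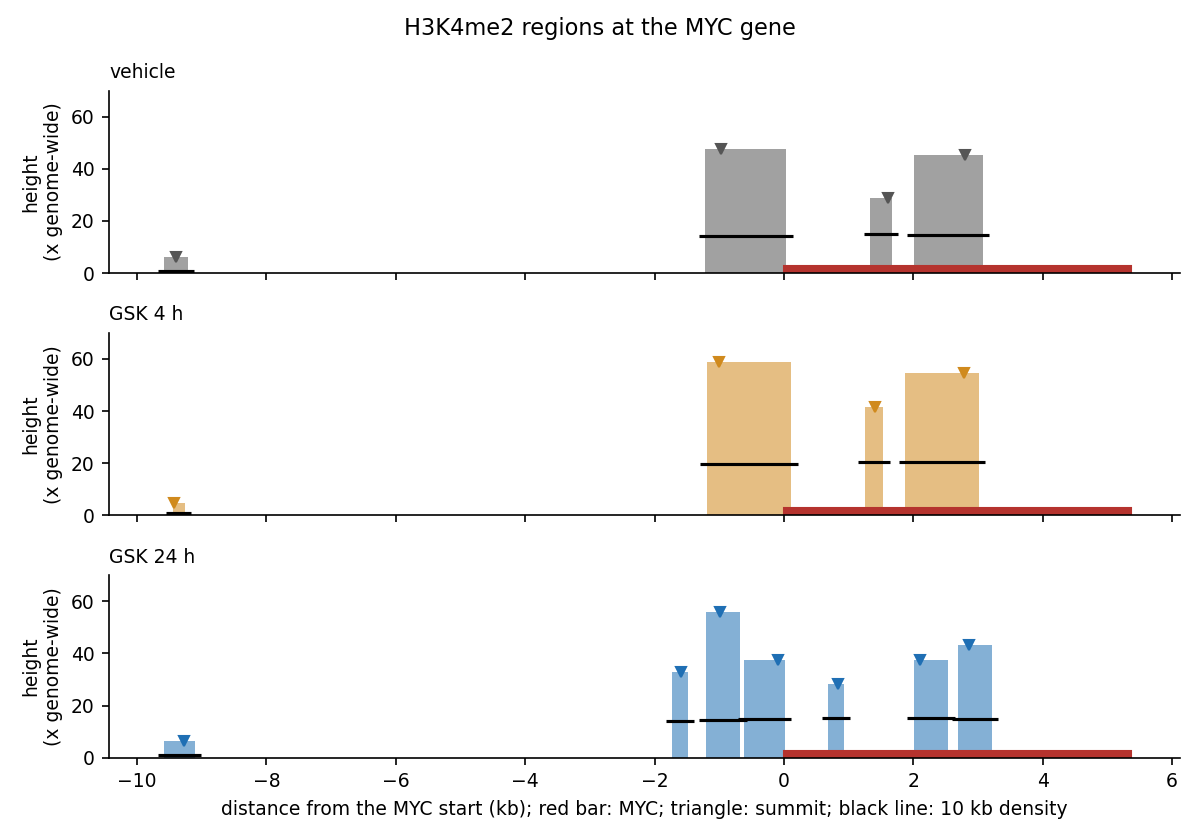
H3K4me2 records from 10 kb before to the end of MYC, with height (multiples of the genome-wide background) against distance from the MYC start in kb. Each bar is a record as wide as its length, triangles mark summits, black lines the density of the surrounding 10 kb, and the red bar MYC. The frame around the start is in all 3 lists, and the 2 strong regions are divided at GSK 24 h.

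MYC sat on a raised plateau of H3K4me2 tags. Beside the summit, the caller's background reports the tags in the surrounding 10 kb, and this density does not depend on the fragment length. Around the summit before the start there were 1340 tags in vehicle, 1986 at GSK 4 h and 1299 at GSK 24 h. Relative to the genome-wide level of each list these were densities of 14.2, 19.6 and 14.5. A density of at least 10 was rarer in each successive list, at 5.98% of regions in vehicle, 3.99% after 4 h and 1.97% after 24 h.

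The plateau was 1.38 times as dense at GSK 4 h as in vehicle (log2 ratio 0.47, interval 0.37 to 0.57), and at GSK 24 h it was back at the vehicle level (log2 ratio 0.03, -0.08 to 0.14). The 10 kb around the summit inside the gene, which shares most of these tags, held 1394, 2067 and 1340 and gave log2 ratios of 0.47 and 0.01. Elsewhere in the genome, densities of this size were lower after GSK. Over 2685 regions of the series whose vehicle density divided by that of the first MYC summit lay between 0.8 and its reciprocal, the median log2 ratio was -0.44 at GSK 4 h and -0.90 at GSK 24 h. MYC stood at percentiles 98.7 and 94.7 of those regions. The downstream part was also denser, with 13 of its 15 regions in all 3 lists above vehicle at GSK 4 h (median log2 ratio 0.33) and 14 at GSK 24 h (0.23). Of all genome regions in the 3 lists, 57.4% were denser at GSK 4 h and 62.2% at GSK 24 h. Neighbouring downstream regions share tags, so the 15 are not independent. The 10 kb around chr8:128860949-128861609 stood at percentiles 95.6 and 90.4 of its like regions, and those around chr8:128843441-128844040 at 78.6 and 99.1, so a high place among like regions was not particular to MYC. These percentiles describe where MYC fell in these pooled lists and carry no replicate error.

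Because of this plateau, the fold enrichment that the authors deposited, which sets a summit against its own surroundings, was low at MYC. It was 3.27 in vehicle, 2.95 at GSK 4 h and 3.77 at GSK 24 h at the summit before the start. The median record of the gene part stood at percentiles 7.17, 3.67 and 1.5 of its list by fold, and at 86.8, 94.1 and 94.6 by height. On the fold scale the 4 h summit was below vehicle, with a log2 ratio of -0.15, where the height gave 0.31.

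In the upstream part, the strongest region of every list was chr8:128598111-128599015, 150 kb before the MYC start. Its pileup was 31 fragments in vehicle, 43 at GSK 4 h and 56 at GSK 24 h. The fold enrichment was 6.82, 8.93 and 10.6, and the -log10 q-value 16.4, 27.1 and 38.2. Its log2 height ratio was 0.62 at GSK 4 h (-0.08 to 1.33) and 0.94 at GSK 24 h (0.28 to 1.62), so only the 24 h value lay past counting error. The summits of the 3 lists lay within 47 bp of each other. Its surroundings changed less, with 167 tags in 10 kb in vehicle, 211 at GSK 4 h and 201 at GSK 24 h.

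The next 5 regions by height were all in the 3 lists. Region chr8:128104141-128104984 had a pileup of 26 in vehicle, 24 at GSK 4 h and 39 at GSK 24 h. Its neighbour chr8:128102561-128103196 had 23, 24 and 34. The farthest, chr8:127907992-127908989, had 20, 22 and 36, with a log2 height ratio of 0.93 at GSK 24 h (0.10 to 1.80). These 3 regions were near the vehicle level at GSK 4 h and at their highest at GSK 24 h, as was chr8:128035184-128035589 with 24, 24 and 33. Apart from the farthest, their 24 h intervals included 0 (-0.08 to 1.44, -0.16 to 1.48 and -0.26 to 1.37, in the order named). They were chosen by their highest summit in any list, which favours a high value in the list that placed them. Region chr8:128519088-128520274, 228 kb before MYC, had 27, 32 and 26 and was highest at GSK 4 h.

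Among the 19 upstream regions found in all 3 lists, most were higher after GSK. At GSK 4 h, 15 were higher than vehicle and 4 lower, with a median log2 ratio of 0.39 (0.03 to 0.73). At GSK 24 h, 16 were higher and 3 lower, with a median of 0.50 (0.15 to 0.67). The shares higher than vehicle were thus 78.9% and 84.2%. Over all 72744 regions in all 3 lists they were 66.1% at GSK 4 h and 61.8% at GSK 24 h. Over regions with vehicle heights in the upstream range they were 75.4% and 73.5%. A height at least 1.5 times above vehicle was reached by 8 of the 19 at GSK 4 h, against 24.1% of all 72744 regions in all 3 lists, and a height at least 1.5 times below by 1, against 12.3%. Over the 39115 of these regions with vehicle heights in the upstream range, the shares were 30.0% and 2.96%. The same counts at GSK 24 h were 7, against 15.3%, and 0, against 13.4%, or 21.9% and 2.49% in that range of heights. In the gene part none of the 3 regions in all lists passed 1.5 times in either direction, and in the downstream part 2 of 15 were higher and 1 lower at each time.

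Regions of low height were also higher after GSK elsewhere in the genome. The median of all regions in the 3 lists was 0.24 at GSK 4 h and 0.15 at GSK 24 h, but over the regions with vehicle heights in the upstream range it was 0.34 and 0.28. The intervals of both upstream medians included those values, so a difference from regions of similar height was not detectable with 19 regions.

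**Figure D3:**
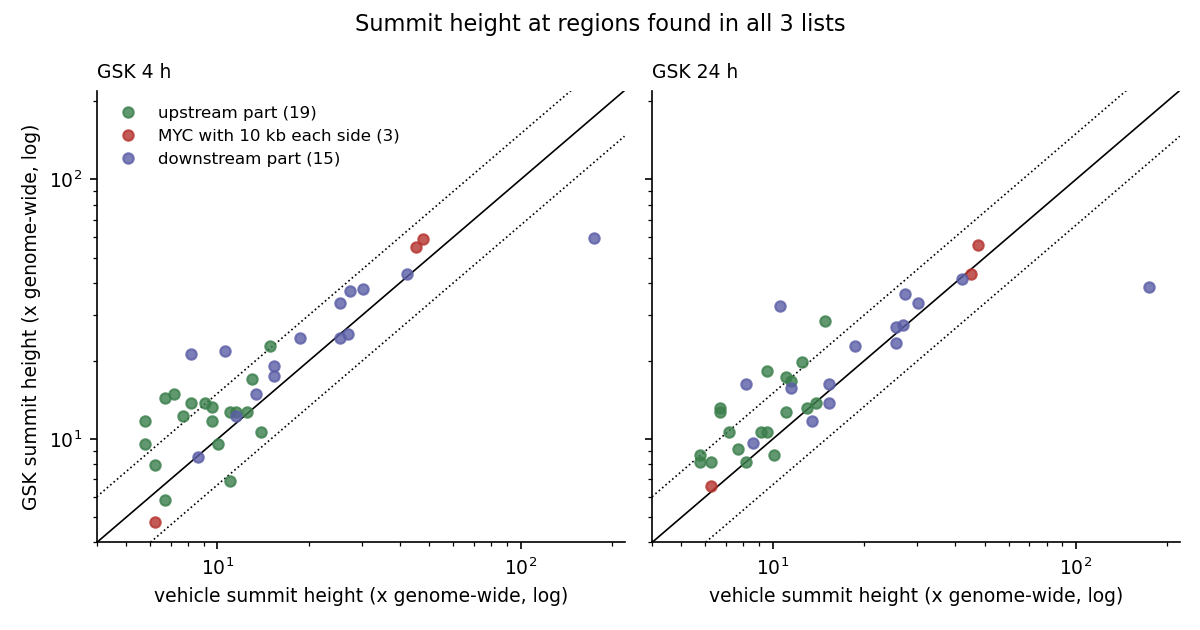
Summit height after GSK against summit height in vehicle (both multiples of the genome-wide background, log axes) for the 37 regions found in all 3 lists, with GSK 4 h on the left and GSK 24 h on the right. The solid line is equality and the dotted lines are 1.5 times above and below. Upstream points lie mostly above equality, the MYC summits lie near it, and 1 downstream region lies far below it.

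The largest upstream ratios at GSK 4 h belonged to 3 regions of modest height. Region chr8:128490683-128491557, 257 kb before MYC, had a pileup of 14 in vehicle, 27 at GSK 4 h and 25 at GSK 24 h, and its log2 ratio was 1.09 at 4 h (0.11 to 2.14) and 0.92 at 24 h (-0.08 to 1.98). Region chr8:128064681-128065349 had 15, 28 and 21, with 1.05 at 4 h (0.09 to 2.06). Region chr8:128113333-128114310 had 12, 22 and 16, with 1.02 at 4 h (-0.06 to 2.17). All 3 were at their highest at GSK 4 h, the time whose ratio was used to choose them. At GSK 24 h the largest ratio, 0.98 (-0.01 to 2.03), was that of chr8:128532046-128532530, whose pileup was 14 in vehicle, 11 at GSK 4 h and 26 at GSK 24 h.

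The smallest ratios were all within counting error. Region chr8:128674584-128675536, 73.4 kb before MYC, had a pileup of 23 in vehicle, 13 at GSK 4 h and 25 at GSK 24 h (log2 ratio -0.68 at 4 h, -1.78 to 0.37). Region chr8:128023760-128024220 had 29, 20 and 27. Region chr8:128323883-128324747 had 21, 18 and 17, and its ratio at GSK 24 h, -0.22 (-1.23 to 0.77), was the lowest of the 19 upstream regions in all 3 lists. Region chr8:128680910-128681841 had 17, 26 and 16, and was highest at GSK 4 h.

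The surroundings of most upstream regions were denser after GSK as well. The background reports no density below the genome-wide level, which acts as a floor. At GSK 24 h, 17 of the 19 were denser than in vehicle, 1 was less dense and 1 was at the floor in both lists. At GSK 4 h, 14 were denser, 2 less dense and 3 at the floor in both. These counts also take small differences. At GSK 4 h, chr8:128674584-128675536 counted as denser with a density of 1.008, barely above the floor. Region chr8:128023760-128024220 counted as less dense with a log2 ratio of -0.02 (-0.30 to 0.27). In the genome, 59.2% of regions of like vehicle height were denser at GSK 4 h and 72.1% at GSK 24 h. The region less dense at both times was chr8:128323883-128324747, with 130 tags in vehicle and the floor in both GSK lists. The largest measured ratio was at chr8:128226937-128227681, with 122 tags in vehicle, 194 at GSK 4 h and 209 at GSK 24 h. Neighbouring regions share tags, so these counts are not independent. In 13 regions the density was above the floor in all 3 lists. Their median log2 ratio was 0.49 at GSK 24 h (range 0.34 to 0.85), with all 13 intervals above 0. At GSK 4 h it was 0.33 (range -0.02 to 0.57), with 6 of 13 above 0. Regions of like vehicle density in the genome had medians at GSK 24 h from 0.11 to 0.29, in the same direction. At GSK 4 h these were 2.8e-06 to 0.25. The 13 stood at percentiles 58.0 to 98.4 at 24 h and 24.1 to 88.1 at 4 h. At vehicle densities of 1.06, 1.08 and 1.12 the like regions include some at the floor, so those medians are no like comparison.

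**Figure D4:**
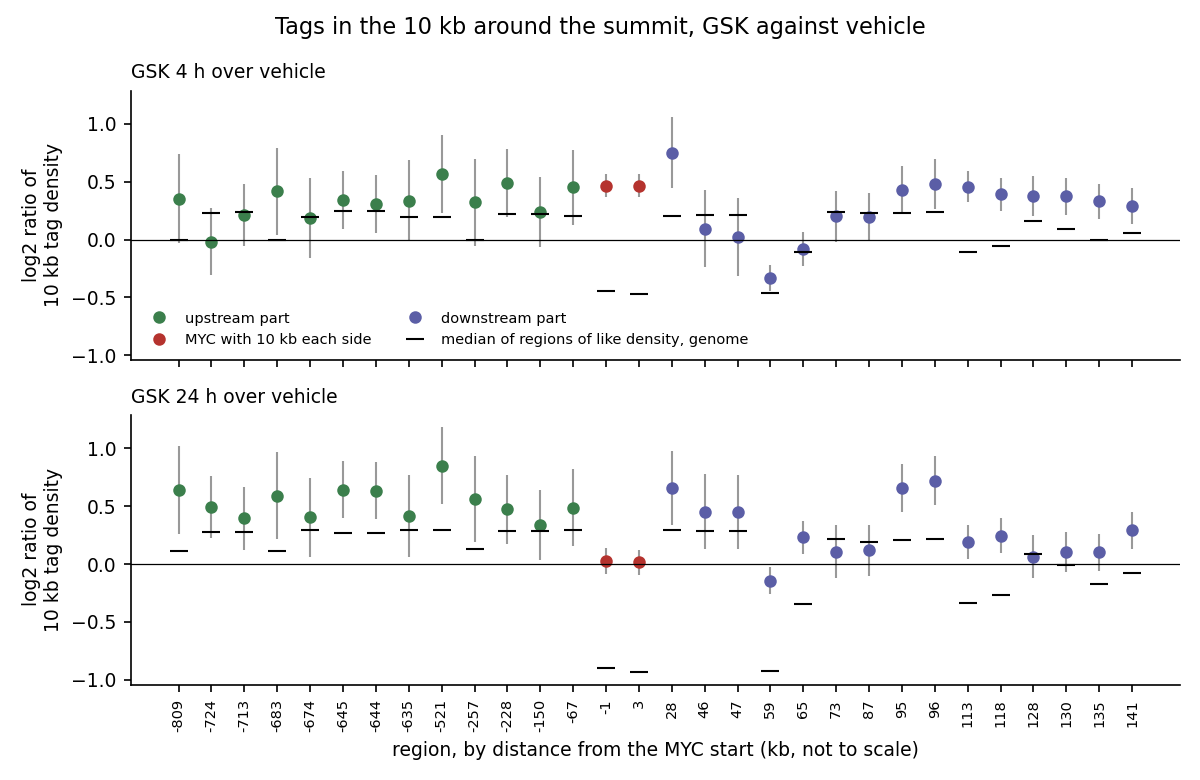
Log2 ratio of the tag density in the 10 kb around the summit, GSK over vehicle, for each region in all 3 lists with a density above the genome-wide floor in the lists compared, in order along the chromosome and labelled by distance from the MYC start in kb. Grey bars are 95% counting intervals and black dashes the medians of regions of like vehicle density in the genome. For the upstream regions with vehicle densities of 1.06, 1.08 and 1.12, the dashes include genome regions at the floor. At MYC the ratio is 0.47 at GSK 4 h and near 0 at GSK 24 h, above dashes at -0.44 and -0.90 for the first summit.

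Which upstream regions were listed varied between the lists. Of the 64, 19 (29.7%) were in all 3 lists, against 47.9% of union regions in the genome. A further 11 (17.2%) were at GSK 4 h alone, 11 (17.2%) at GSK 24 h alone and 8 (12.5%) in both GSK lists. Another 6 (9.38%) were in vehicle alone and 9 (14.1%) in vehicle and at GSK 24 h. None was in vehicle and at GSK 4 h without GSK 24 h. In the genome 14.5% of union regions were at GSK 4 h alone, 14.3% at GSK 24 h alone and 11.0% in both GSK lists. Vehicle alone had 5.45%, vehicle and GSK 24 h 3.84%, and vehicle and GSK 4 h 2.97%.

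Of the 36 upstream vehicle regions, 15 had no overlapping region at GSK 4 h (41.7%), against 15.7% of all vehicle regions. Among the vehicle regions of the same range of heights the share was 21.3%. The shared part, 58.3%, had an interval of 42.2 to 72.9%. At GSK 24 h only 6 of the 36 (16.7%) had no overlapping region, against 14.0% of all vehicle regions and 17.9% of those of like height. Upstream vehicle regions were thus missing more often from the 4 h list than from the 24 h list, and 9 of the 15 missing at 4 h had an overlapping region at 24 h. The order did not hold among records with a -log10 q-value of at least 10, where 3 of 7 upstream vehicle regions had no counterpart at GSK 4 h and 4 of 7 had none at GSK 24 h.

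In the other direction, 20 of the 42 upstream regions at GSK 4 h (47.6%) had no vehicle counterpart, against 33.0% of all regions of that list and 41.1% of those of like height. The count at GSK 24 h was 19 of 48 (39.6%), against 32.0% and 35.5%. The shares of regions without a vehicle counterpart were close to those of regions of like height. The length covered upstream was 15.5 kb in vehicle, 18.2 kb at GSK 4 h and 23.9 kb at GSK 24 h. The 24 h value was 1.54 times that of vehicle, against 1.26 times in the genome. With lists of equal length it was 19.5 kb against 15.5 kb, and the genome-wide ratio was 1.12. Among records with a -log10 q-value of at least 10 the order of the times turned. There the length was 4.09 kb in vehicle, 6.77 kb at GSK 4 h and 5.55 kb at GSK 24 h. These GSK lengths were 1.66 and 1.36 times that of vehicle, against 1.21 and 1.16 times in the genome.

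The highest upstream regions in vehicle alone were weak. They were chr8:128024277-128024551 with a pileup of 17, chr8:128328713-128329008 with 15 and chr8:128073985-128074207 with 14. The highest in both GSK lists alone were chr8:128030366-128030797 with a pileup of 26 at GSK 4 h and 20 at GSK 24 h, chr8:128065775-128066124 with 14 and 19, and chr8:127963712-127964458 with 18 and 16. The pileup of 26 lies above the median of the GSK 4 h list, and the others lie below the median of their list.

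The upstream regions were not spread evenly. No list had a summit in chr8:128127032-128226936, a stretch of 99.9 kb, nor any region between chr8:128700000-128730000. A vehicle gap of similar length, chr8:128342484-128441134 (98.7 kb, ending 307 kb before MYC), held 6 summits in each GSK list. By definition, GSK regions inside such a gap are clear of vehicle regions except at its edges, as 5 were in each list. Another vehicle gap, chr8:128228133-128323882 (95.8 kb), held 2 summits in each GSK list. All these stretches were chosen after their values were seen. In GRCh38.p14, RefSeq names PCAT1, PCAT2, PRNCR1, CASC19, CCAT1, CASC21, CASC8, CCAT2, POU5F1B and CASC11 among the genes before MYC and PVT1 as the next gene after it. All of these but POU5F1B are long noncoding RNA genes, and no region was assigned to any of them, since the builds differ.

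Beyond MYC, the strongest region of the window in vehicle and at GSK 4 h was chr8:128806096-128809053, 58.9 kb after the MYC start. Its pileup was 363 fragments in vehicle, 112 at GSK 4 h and 76 at GSK 24 h. The log2 height ratio was -1.55 at GSK 4 h (-1.87 to -1.24) and -2.17 at GSK 24 h (-2.55 to -1.81). The summits of the 3 lists were spread over 2105 bp, and the 24 h summit was not the one at the vehicle position. Around the summits near the vehicle position the tags in 10 kb were 1384 in vehicle, 1179 at GSK 4 h and 943 at GSK 24 h, where the pileup was 71. Lower summits were the rule for regions this strong, since 3999 and 4057 of the 4108 regions with a vehicle height of at least 100 were at least 1.5 times lower, with medians of -1.33 and -1.91.

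The next highest downstream regions by the rule for naming were a pair. Region chr8:128866046-128866818 had a pileup of 88 in vehicle, 81 at GSK 4 h and 81 at GSK 24 h. Region chr8:128861763-128862203 had 48 in vehicle and 73 at GSK 4 h (log2 height ratio 0.75, 0.21 to 1.31) and was not listed at GSK 24 h. Of the other downstream regions in all 3 lists, a pair, named after their values were seen, had log2 height ratios with intervals above 0 at both times. Region chr8:128844200-128844822, 96.2 kb after the MYC start, had a pileup of 22 in vehicle, 41 at GSK 4 h and 64 at GSK 24 h, with log2 height ratios of 1.05 (0.26 to 1.86) and 1.62 (0.91 to 2.39). Region chr8:128775230-128776639, 27.8 kb after the start, had 17, 40 and 32, with 1.38 at 4 h (0.53 to 2.29) and an interval of 0.11 to 1.94 at 24 h. Its summits were spread over 722 bp, with both GSK summits away from the vehicle summit, so its ratios compare different positions. The ratio of 1.62, at chr8:128844200-128844822, was the largest of the window at 24 h. It too compares different positions, since the vehicle and 24 h summits of that region lay 215 bp apart.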

How the data were processed

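Peaks were called by the authors on both replicates together. The submitters' processing notes name BWA 0.7.2-r351, SAMtools 0.1.18, MACS2 2.0.10.20131216 and hg19. Settings and any control sample are not given in the sources used here. The deposited narrowPeak lists hold a display score (about 10 times the -log10 q-value), the p- and q-value as -log10, and a fold, the ratio of summit to background, not normalised between lists. The lowest -log10 q-values were 1.32 in vehicle, 1.34 at GSK 4 h and 1.34 at GSK 24 h.

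Pileup and background were solved from fold = (pileup + 1)/(background + 1) and the Poisson p-value, within 0.001 on the -log10 p scale. A whole-number pileup was found for all but 2 vehicle regions and for all GSK regions. This reading of the caller is inferred from the values, as are the fragment length (the shortest peak) and the tags in 10 kb (background multiplied by 10 kb and divided by fragment length). On it no input control entered, and the strongest summits are compressed, because 1 tag per position and strand is kept. The lists had 94.3, 101 and 89.8 tags per 10 kb genome-wide (vehicle, GSK 4 h, GSK 24 h). Only the recovery of pileups and the overlap step were tested on made-up peaks. Those pileups were simulated with the same formulas, so the test cannot show whether the caller used them.

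Autosomes, X and Y were kept, and regions were shared at 1 bp of overlap. Where a union region held several records of a list, the highest summit was taken. Intervals are Wilson intervals for shares, exact binomial intervals for ratios of fragments or tags, and order-statistic intervals for medians. Members, parts and lists were chosen with earlier results of these data known. Named regions were all of the gene part, the 6 highest upstream, the 3 highest upstream in vehicle alone and in both GSK lists alone, the 3 largest and 3 smallest upstream ratios at each time, and the 3 highest elsewhere. Regions outside that rule were named after their values were seen. Alternatives were other q-value limits, flanks, overlaps, scalings, merged records, lists of equal length and the fold as deposited. Python 3.11.15, NumPy 2.4.6, pandas 2.3.3, SciPy 1.17.1 and matplotlib 3.10.9 were used. No sequence was printed.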

Additional observations from a re-analysis of the deposited data

How the results depend on the processing

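No paired analysis was possible because each group has 1 pooled list, and for the same reason no replicate could be left out. At a -log10 q-value of at least 10 the gene part kept 2 records in each list, the upstream part had 7 in vehicle, 12 at GSK 4 h and 9 at GSK 24 h, and 61.1% of the window's vehicle regions were shared with GSK 24 h and 77.8% with GSK 4 h, the opposite order to the 83.6% and 72.1% as reported. With lists of equal length, the log2 ratio of region number in the window was -0.12 at GSK 4 h and -0.02 at GSK 24 h, in place of 0.18 and 0.35, and 76.7% of the window's GSK 24 h regions were shared with vehicle (65.4% as reported). With records within 1 kb merged, the gene part had 3 records at GSK 24 h and 91.1% of the window's vehicle regions were shared with GSK 24 h. With an overlap of at least 50% of the region, 49.3% of the GSK 4 h regions were shared with vehicle (62.3% as reported). With the fold as deposited, the log2 ratio at the highest MYC summit at GSK 4 h was -0.15 in place of 0.31, and the upstream median at GSK 24 h was 0.094 in place of 0.50; the fold divides by the surrounding tags, which were denser there. Of the other changes the cause was not tested. A -log10 q-value of at least 5, flanks of 5 or 20 kb, unscaled pileups, pileups scaled to the median of regions in all 3 lists and regions matched 1 to 1 (15 upstream) changed no result they were run on by more than its interval or by 1.5 times for counts. Scaling to that median moved all log2 height ratios down by 0.30 at GSK 4 h and 0.19 at GSK 24 h. The upstream medians became 0.09 and 0.31, and the ratios at the highest MYC summit 0.01 and 0.05. Moved by the same amounts, the intervals of both upstream medians would include 0. Among the named regions, height intervals above 0 would stay so only at chr8:128598111-128599015 and chr8:128844200-128844822 (GSK 24 h) and chr8:128775230-128776639 (GSK 4 h). In chr8:128844200-128844822 and chr8:128775230-128776639 the summits compared lay at different positions. The upstream medians were not run at a -log10 q-value of at least 10 in all lists, which left 2 regions.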
